A study of Homo sapiens with 12 samples.

Results

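Cytosolic ribosomal protein genes encode the proteins that, with the ribosomal RNAs, build the large and the small subunit of the ribosome outside mitochondria. The genes described here are the autosomal and X-linked protein-coding genes whose symbol is RPL or RPS followed by digits and at most a suffix letter A, X or L, together with RPLP0, RPLP1, RPLP2 and RPSA. The kinases named RPS6K and all pseudogenes were left out. The rule found 81 genes among the 60708 gene identifiers measured, 49 of the large subunit and 32 of the small subunit. They lay on 21 chromosomes, 77 of them on autosomes and 4 on the X chromosome, with 12 on chromosome 19 and 8 on chromosome 3. Nearly all of their mRNAs are known to start with a 5′ terminal oligopyrimidine (TOP) tract, an uninterrupted run of C and U bases that begins at the cap. Through this tract their translation follows the kinase mTORC1, with the RNA-binding protein LARP1 as a repressor, while their transcription is raised by MYC. Free RPL5 and RPL11, bound to 5S rRNA, inhibit the ubiquitin ligase MDM2, so that surplus ribosomal proteins are read as a sign of failed ribosome assembly.

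The cells were hTERT RPE-1, human cells from retinal pigment epithelium that divide without limit through added telomerase, and mRNA was sequenced from 4 clonal lines with 3 libraries each, which the labels call biological replicates. Clones LmnB1_16 and LmnB1_6 overexpressed lamin B1, a filament protein of the inner nuclear envelope, fused to the red fluorescent protein mCherry, and clones mCherry_4 and mCherry_3 expressed mCherry alone. All clones were grown with hygromycin B and were exposed to doxycycline at 0.05 ug/mL for 24 h, so no library was free of the inducer. A construct is therefore represented by 2 clones, and a difference between constructs and a difference between clones can be separated only as far as the 2 clones of a construct vary. LMNB1 mRNA bore out the labels, at 3374 ± 272.6 CPM (counts scaled to a library of 1000000) in LmnB1_16 and 3976 ± 163.7 in LmnB1_6, against 161.4 ± 7.295 in mCherry_4 and 84.98 ± 7.118 in mCherry_3 (mean ± SD, n = 3 each). Several defining retinal pigment epithelium genes were absent or nearly so: RPE65, TYR and TTR had 0 counts, and RLBP1 and TYRP1 had 22 and 11 counts over all 12 libraries. BEST1 and PMEL were detected at low levels. BEST1 stayed at or under 0.787 CPM in every library, and PMEL ran from 0.733 to 4.884 CPM, highest in mCherry_3. The transcription factors MITF and OTX2 were expressed in 3 clones but not in LmnB1_6, with mean CPM of 31.3 and 15.5 in LmnB1_16, 0.059 and 0 in LmnB1_6, 49.0 and 11.1 in mCherry_4 and 58.6 and 12.6 in mCherry_3.

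Runs of pyrimidines lay over the start site of most genes examined, and the sequences of a few genes are printed here. Of the 81 genes, 64 had an entry in the RefSeq promoter table (build GRCh38.p14), and some had several, which gave 79 entries. Each sequence below runs from 45 bases before to 15 bases from the annotated first transcribed base, 5′ to 3′ on the gene's own strand, and capitals mark the uninterrupted run of C and T that covers that base. The first 4 belong to genes that were higher in some clones than in others, and they have runs of 11 to 14 bases. Parts of these runs lie before the annotated first base, so the mRNA from that start holds a shorter run. RPS7 lacks the stricter pattern described below, a C at the first base followed by 4 pyrimidines. In RPL39, shown further down, the run has 22 bases and only 18 lie inside the printed window.
RPL14, chr3:40457294-40457353, plus strand: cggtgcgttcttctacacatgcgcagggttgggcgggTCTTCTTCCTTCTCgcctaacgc
RPL18, chr19:48619164-48619223, minus strand: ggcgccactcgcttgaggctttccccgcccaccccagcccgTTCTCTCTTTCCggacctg
RPS3, chr11:75399473-75399532, plus strand: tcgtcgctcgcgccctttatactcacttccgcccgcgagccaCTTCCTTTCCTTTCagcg
RPS7, chr2:3575215-3575274, plus strand: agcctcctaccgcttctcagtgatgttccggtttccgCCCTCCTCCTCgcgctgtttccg

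The next sequences belong to 3 genes for which no comparison described below passed the test between constructs or between the clones of a construct: RPLP1 of the ribosomal stalk, and RPL39 and RPS27, each of which has a paralogue among the 81 genes.
RPLP1, chr15:69452773-69452832, plus strand: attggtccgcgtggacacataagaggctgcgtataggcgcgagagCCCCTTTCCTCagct
RPL39, chrX:119791616-119791675, minus strand: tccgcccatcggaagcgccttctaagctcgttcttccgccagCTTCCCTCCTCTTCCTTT
RPS27, chr1:153990717-153990776, plus strand: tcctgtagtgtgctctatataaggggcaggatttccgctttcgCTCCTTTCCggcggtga

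The last 4 have no such run over the annotated first base, but in RPS26 and RPS28 a run of pyrimidines begins just after it. RPS27L and RPL10L are the paralogues of RPS27 and RPL10, and RPS26 and RPS28, chosen after their values were seen, were 2 of the 3 genes whose log2 fold change between constructs was below 0.
RPS27L, chr15:63157463-63157522, minus strand: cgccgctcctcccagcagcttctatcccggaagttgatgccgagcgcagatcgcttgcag
RPL10L, chr14:46651767-46651826, minus strand: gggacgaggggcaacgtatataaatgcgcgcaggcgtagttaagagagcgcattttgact
RPS26, chr12:56041873-56041932, plus strand: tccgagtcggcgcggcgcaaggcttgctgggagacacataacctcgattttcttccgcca
RPS28, chr19:8321451-8321510, plus strand: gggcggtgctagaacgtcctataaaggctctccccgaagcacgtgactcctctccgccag

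A run of at least 5 pyrimidines over the annotated first base occurred in 50 of the 79 ribosomal protein entries (63.3%), against 3372 of all 35116 entries (9.6%). The stricter pattern of a C at the first base followed by 4 pyrimidines occurred in 46 entries (58.2%), against 4.1% of all entries. In the 300 bases around the start, on either strand, the letters CCGGAAG (a core that ETS-family factors recognise) occurred in 34.2% of the ribosomal protein entries and in 10.3% of all entries. The E-box CACGTG, a sequence that MYC with MAX recognises, occurred in 5.1% and 7.3%, and the TATA-box letters TATAAA in 7.6% and 11.5%. The RPS28 sequence printed above holds both CACGTG and TATAAA. These are matches of letters in a window, not sites of binding.

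The 81 genes were among the most abundant mRNAs of the cells. In TPM, a share of 1000000 transcripts after division by length, the median of the 79 genes tested was 2098, and 55 of the 81 were among the 100 most abundant genes of the series. RPS27, a zinc-finger protein of the small subunit, was highest at 4748 TPM (rank 16 of all genes), although its short transcript has an effective length of only 94.59 bases. It was followed by RPS2 at 3987 TPM, RPL13 at 3584 TPM, RPLP0 at 3494 TPM and RPL35 at 3488 TPM. Apart from the paralogues RPL39L and RPS27L, the 77 other genes tested spanned an 8.73-fold range, down to RPL22 at 543.9 TPM.

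The 4 paralogues were the lowest. RPS27L averaged 290 TPM, and RPL39L, which is enriched in testis, averaged 91.9 TPM, against 2394 TPM for RPL39. RPL3L, a protein of skeletal and cardiac muscle ribosomes, had 4 counts in all, at CPM of 0.049, 0 and 0.037 in LmnB1_16, 0, 0 and 0.067 in LmnB1_6 and 0 in every mCherry library. RPL10L, an autosomal retrogene copy of RPL10 used in the male germ line, had 0 counts in all 12 libraries, which at 3 counts per library sets only an upper limit. RPL3L and RPL10L did not pass the filter on low counts, so every count of genes below is out of 79.

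Together the 81 genes took a similar share of the counts in every library. The share was 5.06, 4.15 and 4.85% in LmnB1_16, 5.31, 5.32 and 5.09% in LmnB1_6, 4.61, 4.63 and 4.78% in mCherry_4, and 4.25, 4.71 and 4.53% in mCherry_3. All 3 LmnB1_6 libraries were above all others, and the LmnB1_16 libraries spanned the range of both mCherry clones, with the lowest value of the series in replicate 2. Per length, the share of TPM was 17.3, 15.4 and 16.9% in LmnB1_16, 18.6, 18.3 and 17.6% in LmnB1_6, 16.8, 16.3 and 16.9% in mCherry_4, and 15.6, 16.1 and 15.98% in mCherry_3. The ratio of large-subunit to small-subunit counts stayed within 1.61 to 1.69, so both subunits moved in step from library to library. In bulk libraries of this kind, fewer cells of a type and less RNA per cell cannot be told apart.

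**Figure D1:**
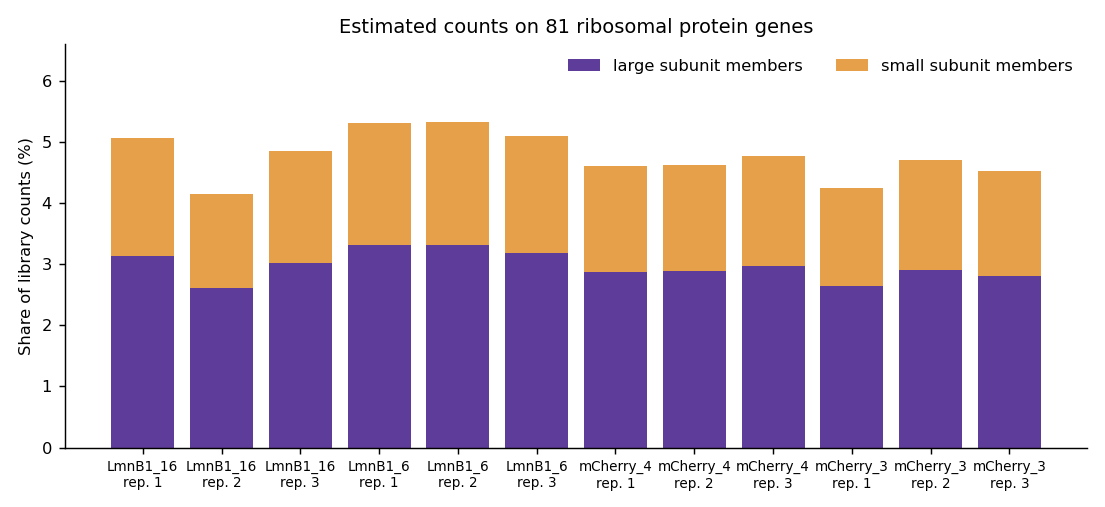
Share of each library's estimated counts that fell on the 81 ribosomal protein genes, in percent, with a stacked bar for each library, ordered by clone. The large-subunit genes form the lower part of each bar and the small-subunit genes the upper part. The LmnB1_6 bars reach 5.09 to 5.32%, and replicate 2 of LmnB1_16 is the lowest at 4.15%.

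Replicate 2 of LmnB1_16 stood apart in a way that depended on transcript length. Against each gene's mean over all libraries, the median ribosomal protein gene lay at 0.11, −0.20 and 0.03 on the log2 CPM scale in the 3 libraries of LmnB1_16, at 0.18, 0.18 and 0.09 in LmnB1_6, at 0.01, 0.04 and 0.05 in mCherry_4 and at −0.24, −0.11 and −0.16 in mCherry_3. In replicate 2 of LmnB1_16 the 494 other genes with transcripts under 1000 bases had a median of −0.26. The 2040 genes of at least 4000 bases had one of 0.15. In replicate 1 of LmnB1_16 these medians were 0.07 and −0.02. The ribosomal protein mRNAs themselves are short, with a median of 645.4 bases and 69 of 79 under 1000 bases.

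The low values of mCherry_3 had no such length pattern. Its short-gene medians were −0.04, 0.07 and 0.02, and its long-gene medians were 0.04, −0.06 and −0.03. When the 79 genes were split by length, the 39 shorter and the 40 longer ones lay at −0.25 and −0.15 in replicate 2 of LmnB1_16, and at −0.23 and −0.25, −0.06 and −0.13, and −0.13 and −0.18 in the 3 mCherry_3 libraries. Counts from contrasts of LmnB1_16 are therefore given with and without its replicate 2, as are its largest changes of single genes.

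**Figure D2:**
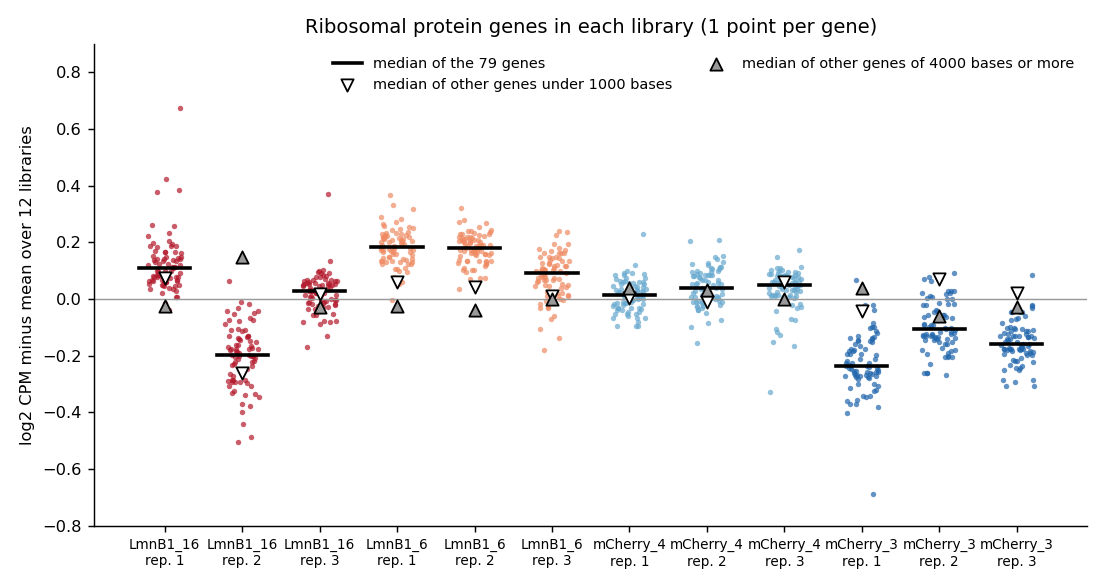
Deviation of each library from the gene's mean over all libraries, in log2 CPM, with a point for each of the 79 ribosomal protein genes, a bar at their median, and triangles at the medians of other genes with transcripts under 1000 bases and of genes of at least 4000 bases. In replicate 2 of LmnB1_16 the ribosomal protein genes (−0.20) and the short genes (−0.26) are low together, whereas in mCherry_3 the ribosomal protein genes are low (−0.24 to −0.11) and the short genes lie at −0.04 to 0.07.

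The first comparison asked whether lamin B1 overexpression changed these mRNAs, with 6 lamin B1 libraries set against 6 mCherry libraries. Almost every ribosomal protein mRNA was slightly higher in the lamin B1 libraries, but the differences were small beside the spread among clones, and 1 of 79 genes rose and 0 fell (edgeR quasi-likelihood test, Benjamini-Hochberg adjusted p under 0.05 over all genes tested). Of all genes tested, 17.8% were called, 8.58% higher and 9.25% lower, and the count of 1 in 79 lay below that background. The gene that rose was RPL7, a protein of the large subunit encoded on chromosome 8. Its CPM had a lowest, median and highest value of 754.5, 832.4 and 873.9 over the 6 lamin B1 libraries, against 607.3, 699.9 and 789.0 over the 6 mCherry libraries. The libraries of the constructs overlapped, and the fold was 1.17 (log2 0.22, SE 0.071, adjusted p = 0.0464, edgeR).

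The direction was shared more widely than the calls. The log2 fold change was positive for 76 of 79 genes, with a median of 0.14, against a median of 0.0022 over all genes tested. The 3 exceptions were RPS28 at −0.01, RPS27L at −0.04 and RPS26, which had the lowest log2 fold change, at −0.09 (adjusted p = 0.30, edgeR). The genes differed little from each other, with an SD of 0.0654 in log2 fold change, against 0.765 over all genes tested. These sets were not matched for abundance. For 0 genes did the lamin B1 and the mCherry libraries separate without overlap, against 3.8% of all genes on the higher and 4.85% on the lower side.

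The small excess rested on the choice of clones. Leaving out clone mCherry_3 lowered the median to 0.04, with 0 genes called, and leaving out LmnB1_6 lowered it to 0.06, also with 0 called. Leaving out mCherry_4 or LmnB1_16 raised the count to 34 or 28, where 32.5% or 31.7% of all genes were called in either direction. With clone as a random effect in limma 0 genes passed, and the adjusted p of RPL7 was 0.336. Without replicate 2 of LmnB1_16 the count was 14, all higher, where 17.7% of all genes were called, 8.54% higher. Without any 1 of 9 other libraries it was 0.

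**Figure D3:**
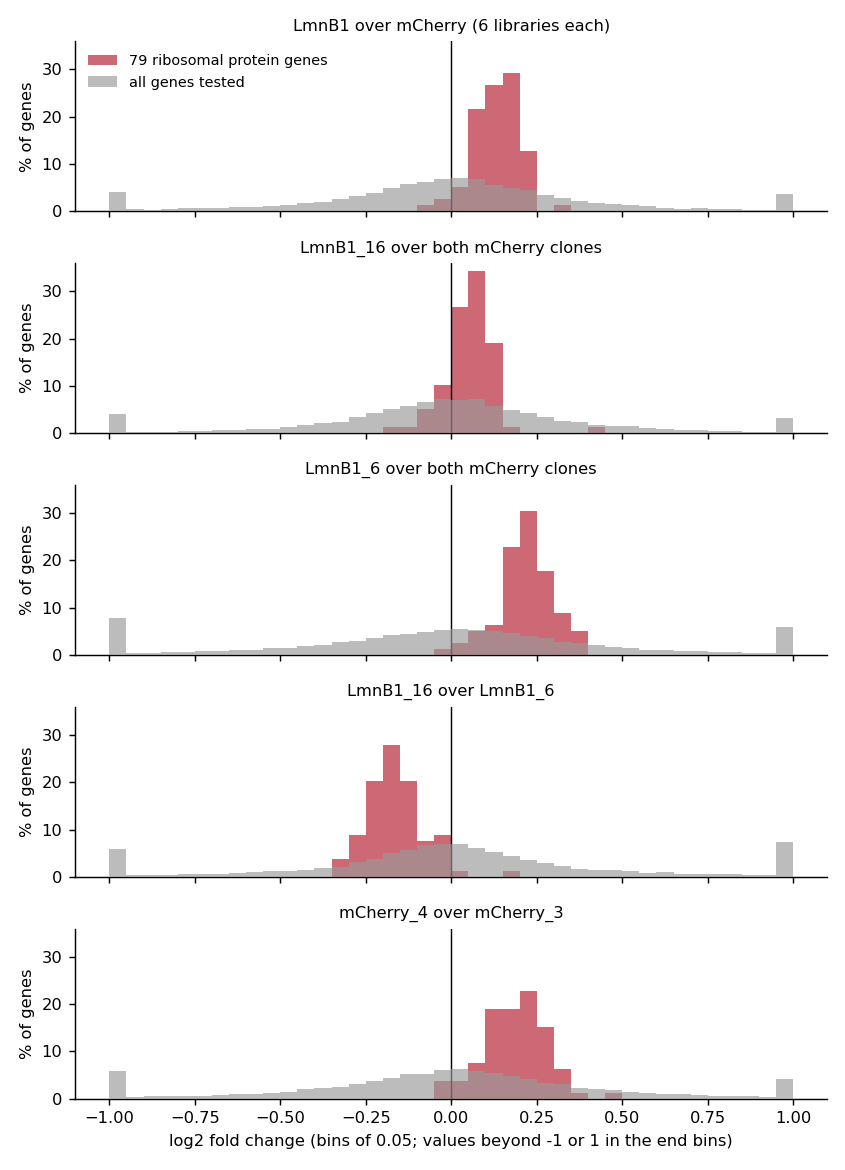
Distribution of log2 fold changes of the 79 ribosomal protein genes and of all genes tested, in the construct comparison and in the clone contrasts, as the share of genes per bin. The ribosomal protein genes form a narrow peak displaced from zero by a median of 0.14 between constructs, 0.21 for LmnB1_6 and 0.19 for mCherry_4 over mCherry_3.

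Set against both mCherry clones, clone LmnB1_6 had higher levels of most ribosomal protein mRNAs. In that contrast 57 of 79 genes rose and 0 fell (edgeR, adjusted p under 0.05), against 49.0% of all genes called and 24.4% called higher. The rise covered 37 of 47 genes of the large subunit and 20 of 32 of the small subunit. It was small throughout, with a median log2 fold change of 0.21 (1.16-fold, median SE 0.062), against 0.0049 over all genes tested, and with 78 of 79 values positive. For 36 genes all 3 LmnB1_6 libraries lay above all 6 mCherry libraries, against 16.3% of all genes tested. On log2(TPM + 1) in limma 31 genes rose and 0 fell, where 38.5% of all genes were called in either direction. The ribosomal protein median there was 0.16, against −0.05 over all genes.

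RPL18, a large-subunit protein, had 610.2, 571.1 and 522.7 CPM in LmnB1_6, against 465.0, 469.7 and 463.7 in mCherry_4 and 407.8, 415.7 and 409.2 in mCherry_3. The LmnB1_6 libraries did not overlap the others, and the log2 fold change over both mCherry clones was 0.38 (adjusted p = 2.5e-05, edgeR). RPS3, which lines the entry of the mRNA channel and also acts in DNA repair, had 1175, 1151 and 1152 CPM in LmnB1_6, against 929.7, 956.5 and 983.5 in mCherry_4 and 761.2, 914.4 and 863.1 in mCherry_3 (log2 0.37, adjusted p = 0.000115, edgeR). RPL14 (log2 0.35, adjusted p = 7.47e-06) and RPL13A (log2 0.33, adjusted p = 0.000474), both of the large subunit, were also among the 5 largest rises. These 4 calls held in each of the 22 alternatives tried.

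The size of the LmnB1_6 difference depended on which mCherry clone it was measured against. Over mCherry_4, 13 genes rose and 0 fell, with a median log2 fold change of 0.11, where 37.2% of all genes were called, 17.1% higher and 20.1% lower. Over mCherry_3, 68 rose and 0 fell, with a median of 0.30 (1.23-fold), where 52.8% of all genes were called, 26.0% higher and 26.8% lower. For 71 genes all LmnB1_6 libraries lay above all mCherry_3 libraries, against 30.1% of all genes tested. These contrasts share the LmnB1_6 libraries.

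Clone LmnB1_16 had ribosomal protein mRNA levels close to those of the mCherry clones as a pair. In that contrast 4 genes rose and 1 fell (edgeR, adjusted p under 0.05), against 33.8% of all genes called, and the median log2 fold change was 0.06, with 65 of 79 values positive. The genes that rose were RPL39L, RPL14, RPL4 and RPL7, and the gene that fell was RPS27L. The call of RPL39L was kept in each of 22 alternatives, while that of RPL4 was lost on TPM (adjusted p = 0.187, limma), that of RPL14 in 5 alternatives and that of RPL7 in 6. For 0 genes did the LmnB1_16 libraries lie above or below all mCherry libraries, against 9.07% of all genes on the higher and 9.88% on the lower side. Without replicate 2 of LmnB1_16, 13 genes lay above and 0 below, against 13.3% and 13.8% of all genes. LmnB1_16 and LmnB1_6 were compared with the same mCherry libraries, and the difference between them is tested below.

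RPL4, whose extended loop lines the tunnel through which the new protein leaves the ribosome, had 1590, 1603 and 1582 CPM in LmnB1_16, against 1541, 1617 and 1586 in mCherry_4 and 1302, 1331 and 1305 in mCherry_3. The LmnB1_16 libraries lay within the range of mCherry_4 and above all of mCherry_3, which gave a log2 fold change of 0.14 (adjusted p = 0.0116, edgeR). RPL14 had 549.6, 523.6 and 569.1 CPM in LmnB1_16, against 548.9, 576.0 and 578.4 in mCherry_4 and 408.1, 450.2 and 436.2 in mCherry_3 (log2 0.15, adjusted p = 0.022, edgeR). RPL7 had 780.0, 754.5 and 795.8 CPM in LmnB1_16, against 710.7, 789.0 and 767.6 in mCherry_4 and 607.3, 689.1 and 666.4 in mCherry_3 (log2 0.14, adjusted p = 0.0318, edgeR). Tested against a single clone, each of the 4 genes that rose was called higher in LmnB1_16 than in mCherry_3, and none of the 4 was called against mCherry_4.

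The count of calls was decided by single libraries. Without replicate 2 of LmnB1_16, 33 genes were higher and 0 lower, where 15.2% of all genes were called higher, and the 4 rises remained while the fall of RPS27L was lost. Without replicate 1 of LmnB1_16 the counts were 2 higher and 3 lower, and without its replicate 3 they were 2 and 1. Without replicate 1 of mCherry_4 they were 2 and 0. With all libraries 17.2% of all genes were called higher and 16.5% lower. On TPM 1 gene rose and 0 fell. Over mCherry_4 alone, 0 genes rose and 1 fell, with a median of −0.04, where 15.7% of all genes were called, 6.67% higher. Without replicate 2 of LmnB1_16 these counts were also 0 and 1, and the median turned to 0.04. Over mCherry_3 alone, 30 rose and 0 fell, with a median of 0.16, where 44.4% of all genes were called, 22.5% higher. Without replicate 2, 64 rose and 0 fell, with a median of 0.23, where 20.9% of all genes were called higher.

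The lamin B1 clones also differed from each other. In LmnB1_16 relative to LmnB1_6, 29 of 79 genes were lower and 0 higher (edgeR, adjusted p under 0.05), against 34.4% of all genes called and 16.6% called lower. The median log2 fold change was −0.16 (a ratio of 0.893), against 0.0014 over all genes tested, and 2 of 79 values were positive. For 31 genes the libraries of LmnB1_16 lay below those of LmnB1_6 without overlap, against 21.7% of all genes tested, and without replicate 2 of LmnB1_16 the count was also 31, against 27.1%. The calls fell on 18 of 47 large-subunit and 11 of 32 small-subunit genes.

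The 5 largest falls included those of RPL34, RPL18, RPS19 and RPL11. RPL34, a small protein of the large subunit, had 273.7, 230.4 and 248.3 CPM in LmnB1_16, against 321.3, 318.8 and 289.0 in LmnB1_6 (log2 −0.30, adjusted p = 0.00138, edgeR). RPL18 had 493.5, 422.5 and 466.7 CPM in LmnB1_16, against 610.2, 571.1 and 522.7 in LmnB1_6 (log2 −0.30, adjusted p = 0.00134, edgeR). In both genes the clones did not overlap, and replicate 2 of LmnB1_16 was the lowest of the 6 libraries. Without it the log2 fold changes were −0.25 for RPL34 (adjusted p = 0.005) and −0.24 for RPL18 (adjusted p = 0.00467, edgeR). RPS19, the ribosomal protein gene most often altered in Diamond-Blackfan anaemia, had 618.3, 485.7 and 608.7 CPM in LmnB1_16, against 705.5, 704.6 and 681.3 in LmnB1_6 (log2 −0.29, adjusted p = 0.00529, edgeR). Without replicate 2 of LmnB1_16 this shrank to −0.18 (adjusted p = 0.00701, edgeR), and on TPM the call was lost (adjusted p = 0.0871, limma).

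The count moved with single libraries and with the scaling. It was 13 without replicate 2 of LmnB1_16, where 15.1% of all genes were called lower, so that count lay near the background. It was 50 without replicate 1 of LmnB1_16, 12 without replicate 1 of LmnB1_6 and 14 without replicate 2 of LmnB1_6. With all libraries 16.6% of all genes were called lower, and the counts of 12 and 14 lay near that share. Scaling factors were also taken from other genes with transcripts under 1000 bases, a setting chosen after seeing the data. With them 6 genes were lower and 0 higher, with a median of −0.09, where 28.4% of all genes were called in either direction. On log2(TPM + 1) in limma 10 were lower and 0 higher, where 25.3% of all genes were called in either direction.

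The clones that carried mCherry alone differed from each other as well. In mCherry_4 relative to mCherry_3, 42 of 79 genes were higher and 0 lower (edgeR, adjusted p under 0.05), against 37.4% of all genes called and 19.9% called higher. The median log2 fold change was 0.19 (1.14-fold), against 0.01 over all genes tested, with 76 of 79 values positive. For 56 genes all mCherry_4 libraries lay above all mCherry_3 libraries, against 25.8% of all genes tested. The calls fell on 28 of 47 large-subunit and 14 of 32 small-subunit genes.

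RPL39L (log2 0.48, adjusted p = 0.00471) and RPL14 (log2 0.40, adjusted p = 2.39e-05, edgeR) had the largest rises. RPS7, a small-subunit protein that also binds MDM2, had 449.7, 457.1 and 439.0 CPM in mCherry_4, against 356.9, 355.6 and 350.6 in mCherry_3 (log2 0.34, adjusted p = 0.000599, edgeR). RPS27L (log2 0.33, adjusted p = 0.000644) and the large-subunit gene RPL17 (log2 0.31, adjusted p = 0.00227, edgeR) completed the 5. RPL17 averaged 657.4 ± 21.74 CPM in mCherry_4 and 529.5 ± 22.05 in mCherry_3 (SD, n = 3).

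This difference is relative to the scaling of the libraries. With library totals alone the median of all genes was −0.13 and the ribosomal protein median was 0.05. With that scaling 8 ribosomal protein genes were higher and 1 lower, where 41.6% of all genes were called in either direction. On log2(TPM + 1) in limma the median of all genes was −0.10 and that of the ribosomal protein genes 0.08. On that scale 7 ribosomal protein genes were higher and 0 lower, where 29.2% of all genes were called in either direction. Without replicate 1 of mCherry_3 the main test called 25.

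**Figure D4:**
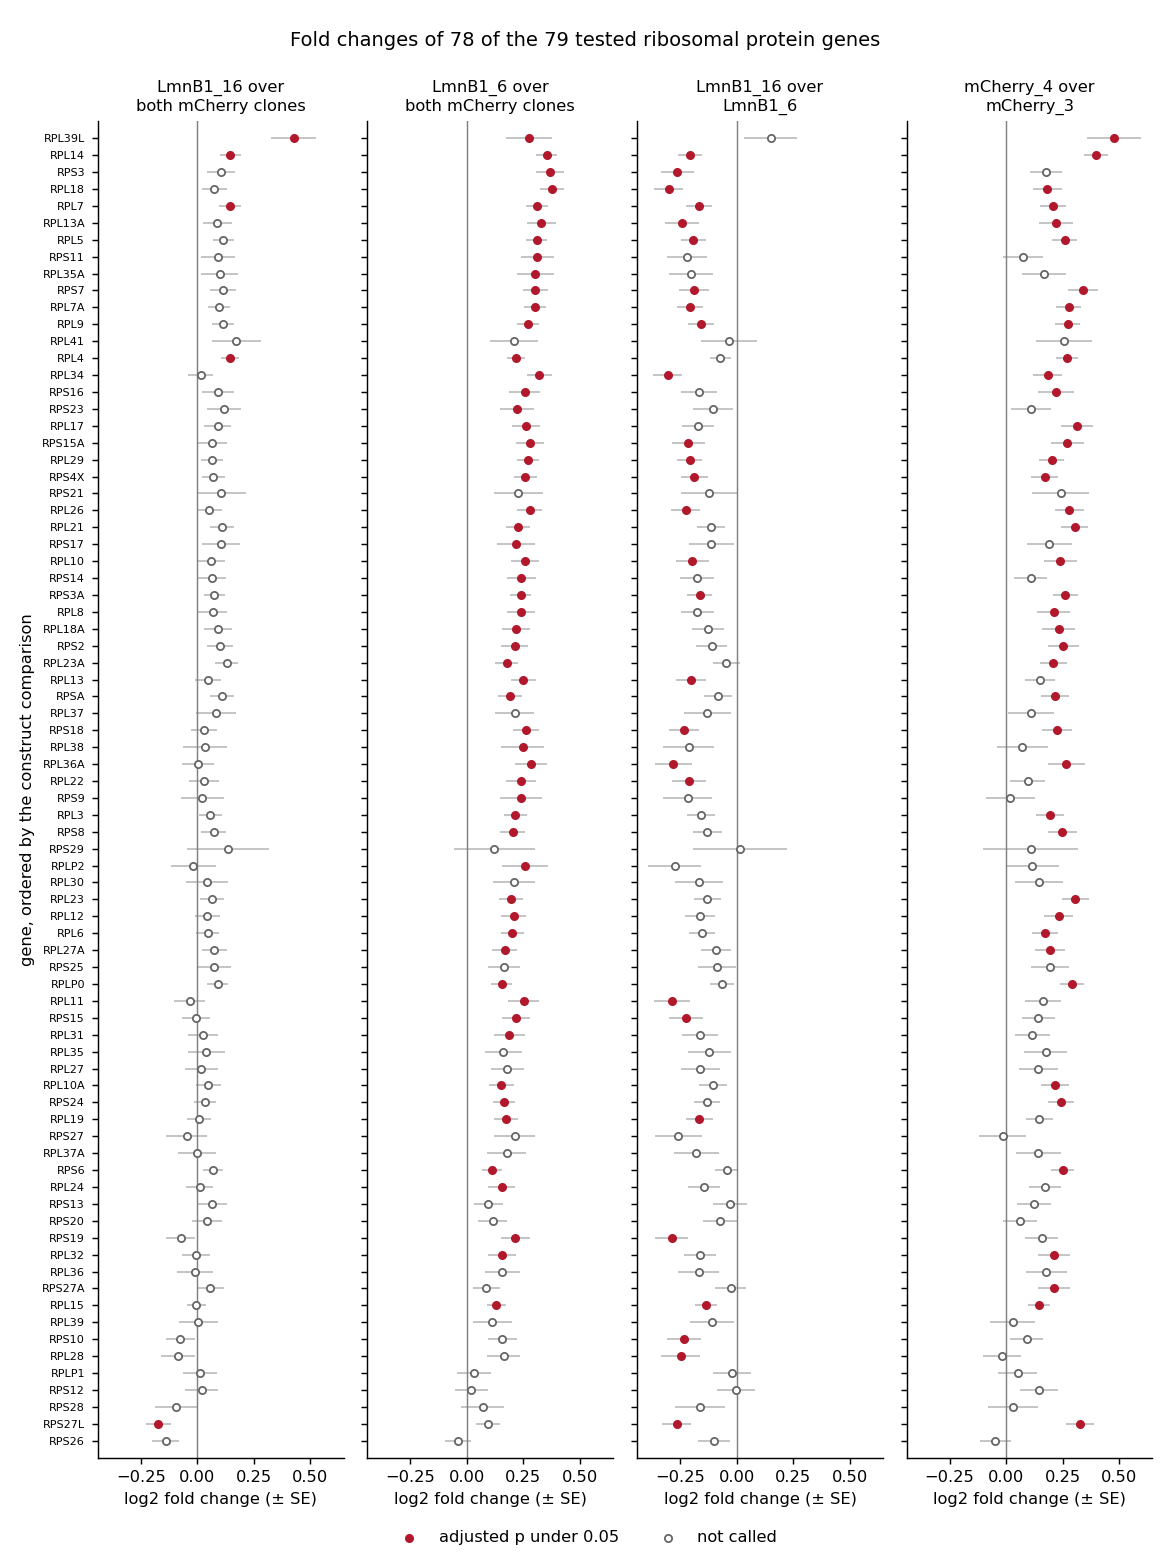
Log2 fold change ± SE of 78 of the 79 ribosomal protein genes in 4 contrasts, with genes called at an adjusted p under 0.05 filled. Over all 79 genes the calls number 5 for LmnB1_16 over both mCherry clones, 57 for LmnB1_6 over both, 29 for LmnB1_16 over LmnB1_6 and 42 for mCherry_4 over mCherry_3.

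The ends of the order of clones were the same for most genes. In 68 of 79 (86.1%) the mean log2 CPM was lowest in mCherry_3 and highest in LmnB1_6, against 15.7% of all genes tested, and without replicate 2 of LmnB1_16 this held for 61 of 79 (77.2%), against 15.5%. The middle of the order rested on that library. LmnB1_16 averaged below mCherry_4 in 65 of 79 genes with it and in 21 of 79 without it. In the test LmnB1_16 and mCherry_4 differed in 1 gene, RPS27L (log2 −0.34, adjusted p = 0.00134, edgeR), also without replicate 2 (log2 −0.27, adjusted p = 0.00317). No ribosomal protein gene was called in the same direction in all 4 contrasts of a lamin B1 clone with an mCherry clone, where 1.77% of all genes were called higher and 2.91% lower. The count in edgeR was also 0 at an unadjusted p under 0.05, and it was 0 in DESeq2.

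With all libraries, the 11 genes outside that pattern were RPL28, RPL39L, RPS6, RPS10, RPS12, RPS19, RPS26, RPS27, RPS27A, RPS27L and RPS28. RPS26, which contacts the mRNA upstream of the start codon, had 255.0, 211.3 and 248.1 CPM in LmnB1_16, 263.3, 266.5 and 236.2 in LmnB1_6, 250.6, 255.1 and 268.4 in mCherry_4, and 265.8, 265.2 and 269.2 in mCherry_3. Its values in mCherry_3, where most of the other genes were lowest, were among the highest and lay above all of LmnB1_16, but it was called in none of the contrasts. RPS28 had 286.3, 182.0 and 256.1 CPM in LmnB1_16, 279.2, 275.2 and 257.2 in LmnB1_6, 260.5, 267.7 and 252.5 in mCherry_4, and 248.7, 269.4 and 247.3 in mCherry_3. Apart from replicate 2 of LmnB1_16 its libraries lay close together.

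The paralogue pairs behaved differently from each other. RPL39L had 37.37, 28.32 and 37.0 CPM in LmnB1_16, 28.54, 31.89 and 32.08 in LmnB1_6, 27.62, 30.97 and 31.73 in mCherry_4, and 17.77, 23.9 and 23.13 in mCherry_3. The mCherry_3 libraries were below all others, and LmnB1_16 over both mCherry clones gave a log2 fold change of 0.43 (SE 0.10, adjusted p = 0.00371, edgeR), while the construct comparison gave 0.33 (adjusted p = 0.0994). RPL39, its counterpart at the exit of the peptide tunnel, had 244.1, 167.7 and 202.7 CPM in LmnB1_16, 231.8, 227.9 and 202.8 in LmnB1_6, 217.0, 208.8 and 192.8 in mCherry_4, and 204.8, 198.5 and 203.3 in mCherry_3, with no call in any of these contrasts. The libraries of RPL39 overlapped between every pair of clones.

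RPS27L had 100.2, 84.01 and 94.12 CPM in LmnB1_16, 108.7, 115.2 and 110.7 in LmnB1_6, 120.9, 119.1 and 111.3 in mCherry_4, and 94.08, 94.16 and 92.06 in mCherry_3. It was low in LmnB1_16 and mCherry_3 and high in the other clones, so that within each construct 1 clone was high. In LmnB1_16 it fell relative to both mCherry clones (log2 −0.17, adjusted p = 0.0227, edgeR) and to LmnB1_6 (log2 −0.27, adjusted p = 0.00333). The first of these calls was lost in 4 of 22 alternatives, among them those without replicate 2 of LmnB1_16 (log2 −0.11, adjusted p = 0.115) and without replicate 1 of mCherry_4 (adjusted p = 0.0509). RPS27 itself had 347.6, 231.9 and 288.0 CPM in LmnB1_16, 355.5, 360.6 and 321.0 in LmnB1_6, 298.2, 310.5 and 282.5 in mCherry_4, and 281.3, 323.1 and 296.4 in mCherry_3, with no call in the construct comparison or the 4 clone contrasts.

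The stalk and the 5S particle are the parts of the large subunit that were listed separately. RPLP0, which anchors the dimers of RPLP1 and RPLP2 that recruit elongation factors, had 2098, 1942 and 2045 CPM in LmnB1_16, 2240, 2179 and 1945 in LmnB1_6, 2093, 2112 and 2123 in mCherry_4, and 1686, 1741 and 1743 in mCherry_3. It was low in mCherry_3 alone, and mCherry_4 exceeded mCherry_3 by a log2 of 0.29 (adjusted p = 0.000508, edgeR). RPLP1 had 1239, 901.8 and 1185 CPM in LmnB1_16, 1152, 1131 and 1091 in LmnB1_6, 1135, 1080 and 1144 in mCherry_4, and 1042, 1128 and 1072 in mCherry_3. Its clones overlapped and it was called in none of the contrasts. RPLP2 rose in LmnB1_6 over both mCherry clones (log2 0.26, adjusted p = 0.0441, edgeR), at 399.0, 409.9 and 369.0 CPM in LmnB1_6, against 326.3, 334.4 and 365.2 in mCherry_4 and 299.7, 331.1 and 316.4 in mCherry_3. This call was lost in 8 of 22 alternatives, 6 of which left out a single library.

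Of the 5S particle, RPL5 had 630.2, 576.1 and 632.4 CPM in LmnB1_16, 731.2, 701.8 and 667.9 in LmnB1_6, 609.4, 613.4 and 633.2 in mCherry_4, and 492.1, 537.4 and 522.2 in mCherry_3. RPL11 had 471.0, 369.2 and 433.6 CPM in LmnB1_16, 518.4, 528.1 and 506.6 in LmnB1_6, 450.3, 485.0 and 446.2 in mCherry_4, and 373.9, 444.9 and 413.7 in mCherry_3. Both were highest in LmnB1_6, without overlap with any other clone. In LmnB1_6 over both mCherry clones RPL5 rose by a log2 of 0.31 (adjusted p = 5.34e-05) and RPL11 by 0.25 (adjusted p = 0.00592, edgeR). LmnB1_16 was lower than LmnB1_6 in RPL5 (log2 −0.19, adjusted p = 0.0132) and in RPL11 (log2 −0.29, adjusted p = 0.00997, edgeR). Without replicate 2 of LmnB1_16 the log2 fold changes were −0.15 for RPL5 (adjusted p = 0.0428) and −0.20 for RPL11 (adjusted p = 0.0374, edgeR). The RPL5 call was lost in 3 of 22 alternatives. Between mCherry_4 and mCherry_3, RPL5 was called (log2 0.26, adjusted p = 0.0017) and RPL11 was not (log2 0.16, adjusted p = 0.12, edgeR).

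**Figure D5:**
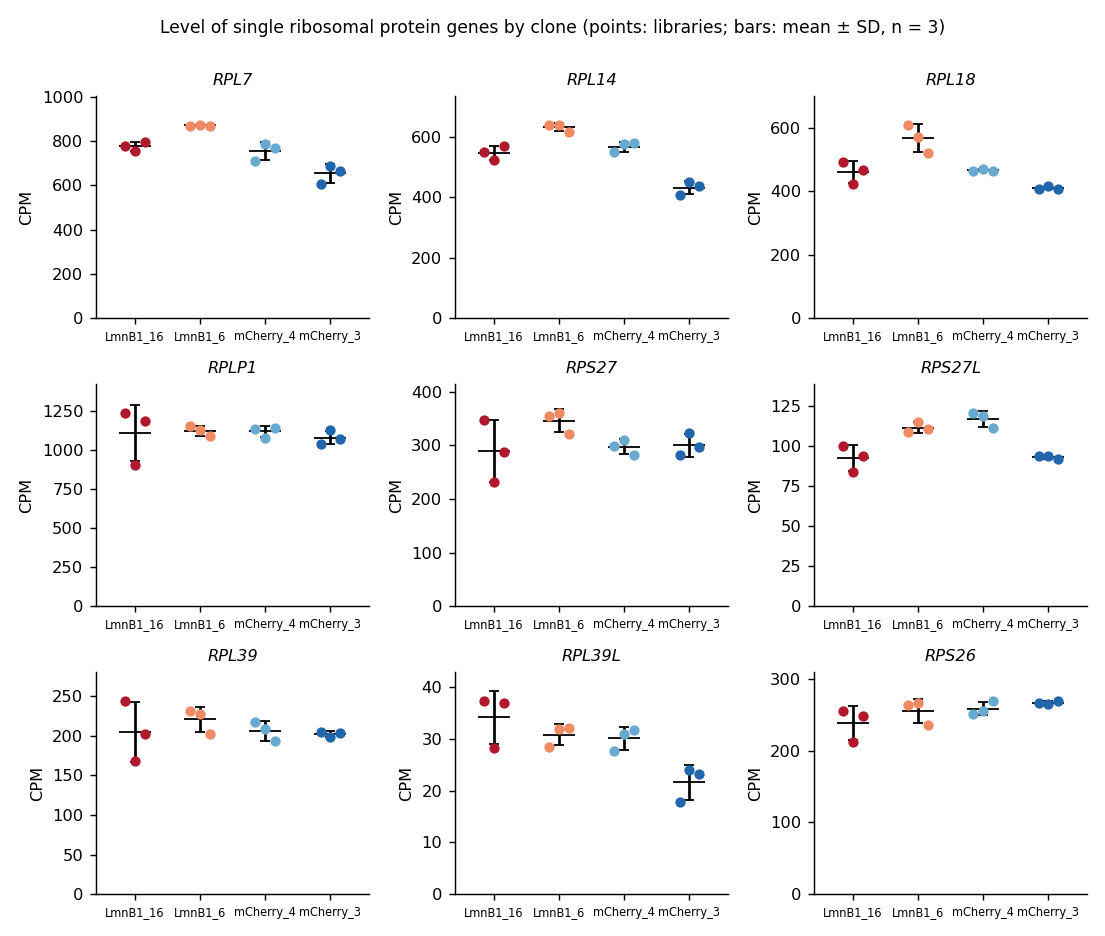
CPM of 9 ribosomal protein genes in every library by clone, with the clone mean ± SD (n = 3) and axes from 0. RPL14 and RPL39L are low in mCherry_3, RPS27L is high in LmnB1_6 and mCherry_4, the clones overlap in RPLP1 and RPL39, and RPS26 is highest on average in mCherry_3.

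Of the 19 genes altered in Diamond-Blackfan anaemia, an inherited failure of red cell production, 12 rose and 0 fell in LmnB1_6 over both mCherry clones, where 24.4% of all genes were called higher. In LmnB1_16, 9 were lower than in LmnB1_6 and 0 higher, where 16.6% of all genes were called lower, and without replicate 2 of LmnB1_16 the count was 5, against 15.1%. In mCherry_4, 7 were higher than in mCherry_3 and 0 lower, where 19.9% of all genes were called higher, and 0 were called between constructs. The 28 genes that carry annotated small nucleolar RNAs in their introns, 60 of them in all, had 22 rises and 0 falls in LmnB1_6 over both mCherry clones (median log2 0.21), and the 51 tested genes without them had 35 and 0 (median 0.22), again beside 24.4% of all genes called higher. In mCherry_4 over mCherry_3, where 19.9% of all genes were called higher, the counts were 18 and 0 for the host genes and 24 and 0 for the others.

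Genes with and without a pyrimidine run over the annotated start, which may lie partly before it, were counted in the same way. Of the 49 genes with a run of at least 5 pyrimidines, 35 rose and 0 fell in LmnB1_6 over both mCherry clones, with a median log2 fold change of 0.22, where 24.4% of all genes were called higher. Of the 14 tested genes whose entry had none, 9 rose and 0 fell, with a median of 0.17. In mCherry_4 over mCherry_3, 22 of 49 and 9 of 14 rose, with medians of 0.18 and 0.17, where 19.9% of all genes were called higher. Genes without the run at the annotated start were RPL4, RPL6, RPL9, RPL10A, RPL10L, RPL15, RPL17, RPL27, RPL32, RPS4X, RPS15, RPS26, RPS27L, RPS28 and RPS29. In RPS26 and RPS28 a run begins just after the annotated first base, so the grouping depends on that annotation. The difference between the groups was not tested.

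Ribosomal protein genes have many processed copies in the genome, and reads may be divided among near-identical sequences. By symbol, 1587 pseudogenes of 77 of the genes were annotated, and 64 passed the filter. In LmnB1_6 over both mCherry clones 14 of these rose and 1 fell, where 24.4% of all genes were called higher. The median log2 fold change of the 64 was 0.41, against 0.0049 over all genes tested. A single copy, RPS2P5 on chromosome 12, held 73.6% of all pseudogene counts, and RPS2 pseudogenes together came to 37.0% of the RPS2 counts, so the level of RPS2 is uncertain. The readthrough gene RPL36A-HNRNPH2 had 24.5% as many counts as RPL36A. For RPS10-NUDT3 the figure was 4.02% of RPS10, and for RPL17-C18orf32 it was 3.20% of RPL17.

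Genes that work with the ribosome were counted in the same contrasts. Their calls between constructs treat the 3 libraries of a clone as separate replicates, and 17.8% of all genes were called in that test. With clone as a random effect 1.06% of all genes were called, and 0 genes of the lists below (lowest adjusted p 0.105, limma). With counts summed per clone 0 of all genes were called, with 642 at an unadjusted p under 0.05 (edgeR). Of 16 other genes known for a 5′ oligopyrimidine tract, mostly translation factors, 6 rose and 0 fell between constructs (median log2 0.17). In LmnB1_6 over both mCherry clones 13 rose and 0 fell, where 24.4% of all genes were called higher. In LmnB1_16 over both, 7 rose and 0 fell, where 17.2% of all genes were called higher. Without its replicate 2 the counts were 4 and 0, against 15.2%. In mCherry_4, 10 were higher than in mCherry_3 and 0 lower, where 19.9% of all genes were called higher. HNRNPA1, an RNA-binding splicing regulator, had mean CPM of 1330 in LmnB1_16 and 1450 in LmnB1_6, against 1180 in mCherry_4 and 879 in mCherry_3 (construct log2 0.43, adjusted p = 0.0166, edgeR). The histone chaperone NAP1L1 had 718 CPM in LmnB1_16 and 772 in LmnB1_6, against 655 in mCherry_4 and 529 in mCherry_3 (log2 0.33, adjusted p = 0.0147). EIF3L (log2 0.28, adjusted p = 0.0234) and EIF4B (log2 0.21, adjusted p = 0.0318, edgeR), both initiation factors, also rose.

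Of 29 genes for ribosome assembly and the nucleolus, 2 rose and 1 fell between constructs. In mCherry_4, 21 were higher and 2 lower than in mCherry_3 (median log2 0.25), where 19.9% of all genes were called higher. The nucleolar methyltransferase FBL had mean CPM of 125 in LmnB1_16 and 133 in LmnB1_6, against 104 in mCherry_4 and 69.3 in mCherry_3 (construct log2 0.57, adjusted p = 0.0156, edgeR). UTP20, a component of the small-subunit processome, rose by a log2 of 0.51 (adjusted p = 0.0171). SBDS, which helps release EIF6 from the new large subunit and is altered in Shwachman-Diamond syndrome, fell to 99.7 CPM in LmnB1_16 and 95.2 in LmnB1_6, against 117 in mCherry_4 and 137 in mCherry_3 (log2 −0.38, adjusted p = 0.004, edgeR).

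Of 14 genes of RNA polymerase I, which transcribes the large ribosomal RNA precursor, 1 rose and 0 fell between constructs. It was UBTF, the factor that keeps ribosomal DNA repeats open (153 CPM in LmnB1_16 and 188 in LmnB1_6, against 144 in mCherry_4 and 112 in mCherry_3, log2 0.41, adjusted p = 0.0201, edgeR). Of 17 regulators of ribosomal protein mRNAs tested, 2 rose and 0 fell, the translation repressor EIF4EBP1 (log2 0.37, adjusted p = 0.0315) and TBPL1, a relative of the TATA-binding protein (log2 0.34, adjusted p = 0.0082). MYC, chosen after its values were seen, had 85.25, 69.66 and 80.57 CPM in LmnB1_16, 83.07, 77.81 and 68.03 in LmnB1_6, 83.35, 73.37 and 83.8 in mCherry_4, and 53.45, 58.83 and 53.51 in mCherry_3. It was low in mCherry_3 alone, and mCherry_4 exceeded mCherry_3 by a log2 of 0.54 (adjusted p = 0.000147, edgeR).

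Of 7 ribosomal protein genes that the symbol rule leaves out, 0 were called between constructs. In LmnB1_6 over both mCherry clones 2 rose and 1 fell, where 24.4% of all genes were called higher and 24.6% lower. In mCherry_4, 3 were higher than in mCherry_3 and 0 lower, where 19.9% of all genes were called higher. Among them the scaffold RACK1 had mean CPM of 882 in LmnB1_16 and 950 in LmnB1_6, against 863 in mCherry_4 and 751 in mCherry_3 (construct adjusted p = 0.0657, edgeR). Of 78 mitochondrial ribosomal proteins, which belong to a separate ribosome, 6 rose and 3 fell between constructs, with a median log2 fold change of 0.04. Of all genes, 8.58% rose and 9.25% fell there. In LmnB1_6 over both mCherry clones 15 of the 78 rose and 5 fell, with a median of 0.05. Both shares were below the 24.4% of all genes called higher and the 24.6% called lower. MRPL45 (log2 0.59, adjusted p = 0.00392) and MRPL48 (log2 0.47, adjusted p = 0.00858, edgeR) were among those that rose between constructs.

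In a list of MDM2 and genes linked to it, 0 of 4 genes rose and 1 fell between constructs. CDKN1A, an inhibitor of cyclin-dependent kinases, fell to 184 CPM in LmnB1_16 and 224 in LmnB1_6, against 309 in mCherry_4 and 315 in mCherry_3 (log2 −0.61, adjusted p = 0.00766, edgeR).

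Markers of other cell types also moved between clones. The keratins KRT8 and KRT18 of simple epithelium averaged 372 and 438 CPM in LmnB1_16 and 324 and 291 in LmnB1_6. They averaged 401 and 475 CPM in mCherry_4 and 593 and 613 in mCherry_3. Both fell between constructs (adjusted p = 0.019 and 0.0215, edgeR). The other simple epithelium markers, CDH1 and EPCAM, stayed at or under 0.072 CPM in every library. Of 3 mesenchyme markers, 2 rose and 0 fell in LmnB1_6 over both mCherry clones, where 24.4% of all genes were called higher. In mCherry_4, 2 were higher than in mCherry_3 and 0 lower, where 19.9% of all genes were called higher. But in LmnB1_6 over mCherry_4 alone 1 rose and 2 fell, where 17.1% of all genes were called higher and 20.1% lower. The collagen gene COL1A1 averaged 20.5 CPM in LmnB1_16 and 186 in LmnB1_6, against 17.5 in mCherry_4 and 15.1 in mCherry_3. The intermediate filament gene VIM averaged 5550 CPM in LmnB1_16 and 5700 in LmnB1_6, against 6380 in mCherry_4 and 3450 in mCherry_3, and the cadherin gene CDH2 averaged 296 CPM in LmnB1_16 and 240 in LmnB1_6, against 304 in mCherry_4 and 190 in mCherry_3. Both were lowest in mCherry_3, as most ribosomal protein mRNAs were, and below mCherry_4 in LmnB1_6. The neuronal gene SNAP25 averaged 1.29 CPM in LmnB1_16 and 16.7 in LmnB1_6, against 0.637 in mCherry_4 and 0.457 in mCherry_3, and the glial gene GFAP was at or under 0.51 CPM in every clone mean. Of the leukocyte markers, CD68, a lysosomal protein, averaged 74.0 CPM in LmnB1_16 and 42.3 in LmnB1_6, against 64.5 in mCherry_4 and 83.2 in mCherry_3, and it fell in LmnB1_6 over both mCherry clones (log2 −0.79, adjusted p = 2.84e-08, edgeR). PTPRC stayed at or under 0.344 CPM in every library, and the 3 endothelial markers at or under 0.609 CPM. The part of these differences in the ribosomal protein levels was not tested.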

How the data were processed

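Messenger RNA was sequenced in 12 libraries. The files deposited by the authors hold, per gene and library, estimated counts, TPM and transcript lengths. The submitters' processing notes name STAR, Salmon, DESeq2 and the build GRCh38 (hg38), without versions or order. The deposited TPM values are shares of 1000000 transcripts. Totals were 20.6 to 29.5 times 1000000 counts, and estimated counts were rounded. Intervals and the floor of 3 counts cover counting error only.

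Genes with at least 10 counts by edgeR's filterByExpr (at least 15 in all), 15388 in number, were kept (at least 99.931% of counts in every library). They were fitted in edgeR 4.0.16 (R 4.3.3) by quasi-likelihood with TMM factors (0.9479 to 1.0647), once with construct and once with clone as the group, with Benjamini-Hochberg adjustment over those genes and a threshold of 0.05. CPM values use the same factors, and a mean deviation uses log2(CPM + 0.5). limma 3.58.1 on log2(TPM + 1), DESeq2 1.42.0 and other scalings were alternatives. The fit was also run on simulated data. These held no differences between clones, so they cannot show how often the construct test calls genes falsely when clones vary. No pair of libraries agreed within sampling noise (lowest chi-square per degree of freedom 3.853).

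Gene symbols came from the annotation tables (60652 of 60708 identifiers). The sources used here do not give the strand setting of the counting. The members and lists were chosen with earlier results of these data known. Members named are those not tested, the 5 highest and 5 lowest by TPM, those called between constructs, the 5 largest changes each way per clone contrast, the paralogue pairs, the P stalk and the 5S particle. For other lists up to 4 called genes with the smallest adjusted p, or the 2 most abundant, are named. Values of a few single genes are not reported here. The labels call the libraries of a clone biological replicates and do not say how the cultures were separated, so p-values measure the spread among these libraries.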

Additional observations from a re-analysis of the deposited data

Results flagged for a closer look

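A pair of genes had a library far from the others of their construct. RPL35, a large-subunit protein near the peptide exit, had 374.6 CPM in replicate 2 of LmnB1_16, against 467.4 to 492.8 CPM in the other 5 lamin B1 libraries, and the gap was 0.785 of the whole range. RPLP2, of the stalk, had 240 CPM in the same library, against 352.2 to 409.9 CPM in the others, with a gap of 0.66 of the range. Dixon's critical value for the gap was passed in 2 of 54 groups examined, where chance flags about 1 in 20. The same library was low for other short transcripts too, at a median of −0.26 on the log2 scale.

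A difference between groups was also picked out, since the lamin B1 clones did not share their level. In LmnB1_16, 29 ribosomal protein genes were lower than in LmnB1_6 and 0 higher (edgeR, adjusted p under 0.05), where 34.4% of all genes were called and 16.6% called lower. The count was 13 without replicate 2 of LmnB1_16, where 15.1% of all genes were called lower. It was 10 on TPM and 6 with scaling factors from short genes, where 25.3% and 28.4% of all genes were called in either direction.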

How the results depend on the processing

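The call between constructs, 1 gene, changed with most settings. It was 2 with library totals alone, 0 without the low-count filter, 2 with TMM factors from short genes (added after seeing the data), 5 in DESeq2, 0 in limma on TPM, 0 with counts summed per clone, 0 with clone as a random effect, 0 without clone mCherry_3, 34 without mCherry_4, 0 without LmnB1_6 and 28 without LmnB1_16. Of all genes, 24.3% were called in either direction in DESeq2, 32.5% without mCherry_4 and 31.7% without LmnB1_16. At an unadjusted p under 0.05, 17 ribosomal protein genes passed in the main test and 0 with clone as a random effect. Leaving out a library gave 0 to 14. With replicate number as a block it was 0, while 5, 56, 28 and 42 genes were called in LmnB1_16 and LmnB1_6 over both mCherry clones, LmnB1_16 over LmnB1_6 and mCherry_4 over mCherry_3. Same-numbered libraries correlated at −0.054 to 0.181 over 18 pairs, 3 of them over 0.1, and libraries with different numbers at −0.101 to 0.092 over 36 pairs. Since not every same-numbered pair passed 0.1 and 6 of 12 libraries correlated best with their own number, the numbers were not taken as a pairing.

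For LmnB1_16 over both mCherry clones (5 genes) the count was 12 with short-gene factors (27.0% of all genes called in either direction) and 1 on TPM (23.4%). When a library was left out the count was 2 to 33. For LmnB1_6 (57) it was 31 on TPM (38.5%) and 39 to 68. For LmnB1_16 over LmnB1_6 (29) it was 6 with short-gene factors (28.4%), 10 on TPM (25.3%) and 12 to 50. For mCherry_4 over mCherry_3 (42) it was 9 with library totals (41.6%), 7 on TPM (29.2%) and 25 to 54. The count called in all 4 contrasts of a lamin B1 with an mCherry clone was 0 to 0. The median between constructs (0.14) was 0.0449 without mCherry_3, 0.104 to 0.185 when a library was left out and 0.0582 to 0.2265 otherwise. The cause of these changes was not tested.

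Of the alternatives for single named genes, 1081 kept their direction and side of the threshold, 39 gained a call, 36 lost one and 12 changed sign. RPL7 between constructs lost its call in 17 of 28 settings, with an adjusted p of 0.00601 to 0.779. The sign changes, all of genes not called, were RPL11 (−0.0337), RPLP2 (−0.0149), RPS19 (−0.0723) and RPS27 (−0.043) without LmnB1_6, RPLP0 (−0.0203) and RPLP1 (−0.0003) without mCherry_3, RPLP1 also with library totals (−0.0036), on TPM (−0.0316) and without LmnB1_16 replicate 1 (−0.0104), and RPS27L without LmnB1_16 replicate 2 (0.0067), clone mCherry_4 (0.1284) or LmnB1_16 (0.0834). Over the libraries left out in turn, RPLP1 ran from −0.0104 to 0.0753 and RPS27L from −0.0801 to 0.0067. RPL3L and RPL10L are limited by depth.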
